A study of Homo sapiens with 9 samples.

Results

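The genes described here encode 8 receptor tyrosine kinases outside the EGFR family, AXL, MET, IGF1R, INSR and FGFR1 to FGFR4, and the adaptors IRS1 and IRS2. They were chosen by name, as the rows of the count table that carry these 10 symbols, and they are 10 of 58735 genes in the table. RNA was sequenced from MIA PaCa-2, an established human pancreatic cancer cell line, after a treatment of 24-h. Cells received 1 μM SCH772984, an inhibitor of ERK1/2, or 1 μM compound 1, an inhibitor of TBK1 and IKKε, or 0.1% dimethyl sulfoxide (DMSO), the vehicle. Each condition had 3 libraries, and no labels tie them to separate cultures, so the p-values measure the spread between these libraries, which may be technical. All values come from this cell line at a single time and dose, and the labels name no introduced genetic change.

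Receptor tyrosine kinases sit in the plasma membrane, bind a growth factor outside the cell and phosphorylate themselves and adaptor proteins inside it, which passes the signal to ERK and to PI3K and AKT. AXL is the receptor for GAS6, MET for hepatocyte growth factor, IGF1R and INSR for the insulin-like growth factors and insulin, and the FGFRs for fibroblast growth factors. IRS1 and IRS2 dock on IGF1R and INSR, are phosphorylated by them and bring PI3K to the membrane. ERK signaling feeds back on receptor signaling in many cells, through induced inhibitors such as the Sprouty proteins.

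The library totals ranged from 9464432 to 13887859 counts, and all 10 genes passed the filter on low counts in every comparison. FGFR2 had the fewest reads, with 35 to 54 counts in the DMSO and compound 1 libraries, and AXL among the most, with 1573 to 2869 over all libraries. The share of counts on mitochondrially encoded genes was 3.33 to 3.98% with DMSO, 3.41 to 3.92% with compound 1 and 6.23 to 7.52% with SCH772984. Replicate 1 of compound 1 stood apart from the others of its group. A chi-square of the counts over genes, divided by its degrees of freedom, was 10.1 and 7.61 against replicates 2 and 3, and 2.66 between those. Calls with compound 1 are therefore also given without that library, except those of the gene lists in the direct comparison of the inhibitors. Of 8 markers expected of a pancreatic cancer line, KRT8, KRT18, KRT19 and VIM were well expressed in every library, whereas CDKN2A and EPCAM had 0 counts and KRT7 and CDH1 were at or near 0. Their summed level was 5874 to 6248 CPM (the usual scaling of counts by library size, here with TMM factors) with DMSO, 5449 to 6625 with compound 1 and 3212 to 3518 with SCH772984. All 4 acinar markers were at 0 in all 9 libraries, and the islet list summed to at most 15.1 CPM. The leukocyte list summed to 2.36 to 3.06 CPM with DMSO, 1.35 to 2.91 with compound 1 and 0.844 to 1.48 with SCH772984. The endothelial list, nearly all of it CDH5, summed to 2.87 to 4.49 CPM with DMSO, 6.24 to 6.78 with compound 1 and 0 to 0.537 with SCH772984, while PECAM1 had 0 or 1 counts. Of 4 fibroblast markers, DCN and LUM had 0 or 1 counts, but the summed level of the list, nearly all of it COL1A2, was 458 to 507 CPM with DMSO, 469 to 532 with compound 1 and 988 to 1116 with SCH772984. The mitochondrial share and the sums of the cancer line, leukocyte, endothelial and fibroblast lists thus moved with SCH772984. The endothelial sum also moved with compound 1. The part of these shifts in the results below was not tested. In bulk RNA, fewer cells of a kind and less RNA per cell cannot be told apart.

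The upstream sequences of 3 genes are shown because their measurements frame the results. AXL was the gene that was lower with both inhibitors, IRS2 was the gene that did not pass the test with SCH772984, and FGFR3 was the gene that rose most. Start site windows from RefSeq (GRCh38.p14) were used for 9 of the 10 genes, and that of FGFR1 was not analysed here. The bases upstream of the start are printed in the direction of transcription, and capitals mark GC boxes, the letters GGGCGG on either strand, to which factors of the SP family bind. The AXL sequence, which ends before the gene's first exon in GENCODE 29, lies at chr19:41218973-41219202 on the plus strand, the IRS2 sequence at chr13:109786584-109786833 on the minus strand and the FGFR3 sequence at chr4:1793043-1793292 on the plus strand.
AXL: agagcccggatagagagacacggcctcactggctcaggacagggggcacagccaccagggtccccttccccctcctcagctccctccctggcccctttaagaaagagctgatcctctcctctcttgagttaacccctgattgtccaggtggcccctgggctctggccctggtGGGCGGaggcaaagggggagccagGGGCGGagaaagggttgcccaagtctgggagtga
IRS2: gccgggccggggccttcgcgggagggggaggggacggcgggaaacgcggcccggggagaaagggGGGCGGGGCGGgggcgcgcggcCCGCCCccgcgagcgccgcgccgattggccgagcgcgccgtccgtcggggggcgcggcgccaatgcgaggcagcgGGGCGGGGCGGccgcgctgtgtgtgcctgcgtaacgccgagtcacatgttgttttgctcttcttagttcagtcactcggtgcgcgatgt
FGFR3: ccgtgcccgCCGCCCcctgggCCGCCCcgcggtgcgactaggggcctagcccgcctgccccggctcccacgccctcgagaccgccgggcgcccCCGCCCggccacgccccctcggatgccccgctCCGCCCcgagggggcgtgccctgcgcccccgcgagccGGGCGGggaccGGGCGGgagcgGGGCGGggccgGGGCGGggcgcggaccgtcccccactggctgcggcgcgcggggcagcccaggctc
The FGFR3 sequence held 8 GC boxes, the IRS2 sequence 5 and the AXL sequence 2. These counts did not follow the response to SCH772984. In their windows, MET and IGF1R held 2 each, as many as AXL, FGFR2 held 3, IRS1 and INSR 4 each and FGFR4 7. All of these but AXL were higher with SCH772984. A link between the boxes and the response was not tested. Over the 250 bases upstream, all 9 genes held at least 1 GC box, against 42.6% of the 35116 windows in the RefSeq table. The GC content was between 64.4% for AXL and 86.8% for FGFR3. The shares over all windows, here and below, are not matched for GC content. The letters of an AP-1 site (TGANTCA), a CRE (TGACGTCA), an ETS site (CCGGAAG), a FOXO site (GTAAACA) and an E-box (CACGTG), searched on both strands, were found in 0 of the 9 windows. These letters occur in 6.57%, 1.65%, 8.52%, 2.98% and 6.34% of all windows, in that order. A TEAD site (GGAATG) was found in 1 window, that of IRS1, against 11.9% of all windows. No motif searched contains another. Absence says only that these letters are not in these windows, and no binding of any factor was measured.

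Levels between genes were compared per length, as CPM per kilobase of the gene length in the table. In DMSO, AXL was the most abundant of the 10, at 46.9 CPM per kilobase, which placed it above 92.4% of the 13929 genes that passed the filter over all libraries. IRS1 followed at 20.1 CPM per kilobase. The remaining genes were far lower, and several neighbours overlapped between libraries. FGFR3 (6.68 CPM per kilobase) overlapped IGF1R (5.75 to 6.34), FGFR1 (4.48) overlapped INSR (4.24), and MET (3.20) overlapped FGFR4 (2.65). IRS2 had 2.11 and FGFR2 0.653 CPM per kilobase, and FGFR2 stood above 17.1% of the genes. With compound 1 the order was the same except that INSR (4.25 CPM per kilobase) and FGFR1 (3.84), which overlapped, changed places. With SCH772984, FGFR3 rose to 32.0 CPM per kilobase, a level whose libraries overlapped those of AXL (34.9 to 37.4), and stood above IRS1 (25.3). IGF1R (8.95 CPM per kilobase), FGFR1 (7.87) and INSR (6.14) followed without overlap. MET (5.52) again overlapped FGFR4 (5.36), and IRS2 (2.08) and FGFR2 (0.969) were again the lowest. The place of FGFR3 rests on the division by gene length. In CPM without that division, FGFR3 had 155 and IRS1 252 with SCH772984. With DMSO, FGFR3 had 32.4 CPM, below IGF1R (83.6), FGFR1 (62.0) and INSR (44.3).

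**Figure D1:**
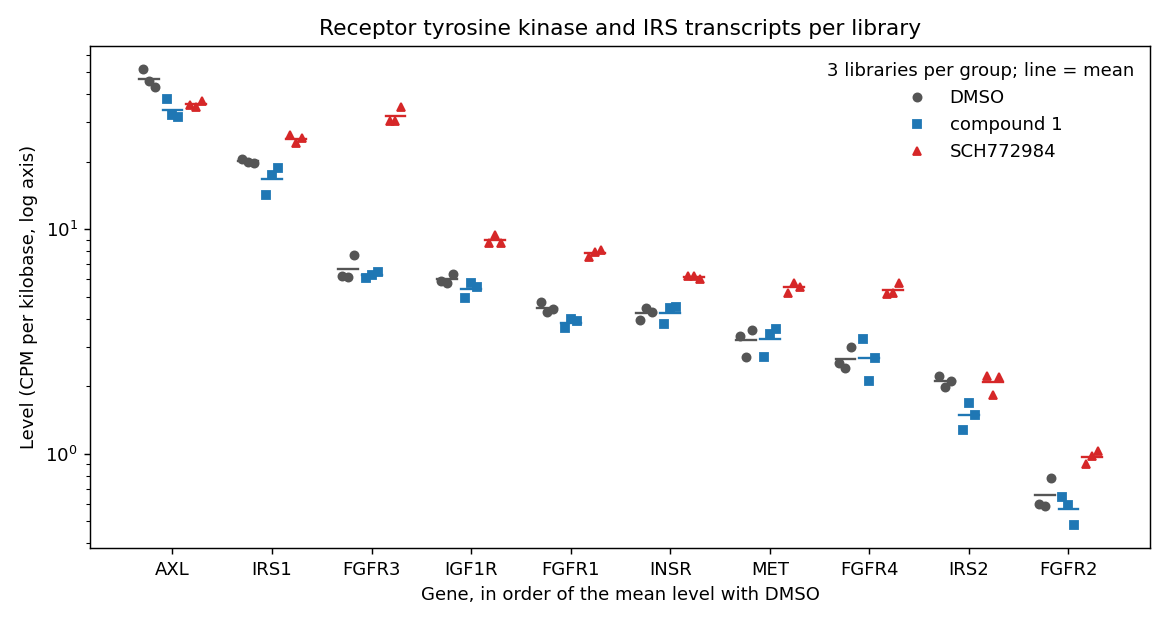
Level of each of the 10 genes in every library, in CPM per kilobase on a log axis. Genes stand along the horizontal axis, with points for the libraries of the 3 conditions and a line for the mean of 3. The 3 SCH772984 libraries of FGFR3 sit between 30.3 and 35.2 CPM per kilobase, above all DMSO libraries (6.10 to 7.72). All 6 inhibitor libraries of AXL sit below the DMSO libraries.

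The comparison of SCH772984 with DMSO asked how these genes respond when ERK is inhibited. With edgeR's quasi-likelihood test and Benjamini-Hochberg adjustment over 13834 genes, 8 of the 10 genes were higher, AXL was lower and IRS2 did not pass. The background is high: 72.8% of all genes tested passed, with 37.2% of the genes tested higher and 35.5% lower. The median log2 fold change of the 10 genes was 0.57, and that of all genes tested was 0.03. Of the 10, 2 were at least 2-fold higher, FGFR3 and FGFR4, where 18.2% of all genes were, and 0 were at least 2-fold lower, where 10.6% were. In 8 genes every SCH772984 library lay above every DMSO library, as in 38.0% of all genes, and in AXL every one lay below, as in 36.3%. When counts were scaled only by library size instead of TMM, this moved the median of all genes by 0.17 and their split from 5150 higher and 4916 lower to 6242 higher and 3911 lower. The 9 calls among the 10 genes and their directions held under that scaling too.

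FGFR3 had the largest change. In the DMSO libraries it had 30.1, 29.6 and 37.4 CPM, and in the SCH772984 libraries 147, 147 and 171 CPM. Every SCH772984 library was thus several-fold above every DMSO library. The log2 fold change was 2.25 (SE 0.09, edgeR adjusted p = 8.41e-26), a 4.77-fold rise with a 95% interval of 4.24 to 5.38, and 4.86% of the genes tested had a higher log2 fold change.

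FGFR4, best known for binding FGF19 in liver, had 12.3, 11.7 and 14.4 CPM with DMSO and 24.8, 25.1 and 27.9 CPM with SCH772984. The groups did not overlap, and the log2 fold change was 1.01 (SE 0.12, edgeR adjusted p = 9.78e-10). FGFR1, the receptor that carries much of the FGF response of mesenchymal cells, had 65.4, 59.3 and 61.3 CPM with DMSO and 105, 110.1 and 112 CPM with SCH772984. Its log2 fold change was 0.81 (SE 0.07, edgeR adjusted p = 1.76e-13), again with no overlap. FGFR1 overlaps LETM2 on the opposite strand, which had 7 to 45 counts per library, and the strand setting of the counting is not given in the sources used here. FGFR2, the least abundant, had 4.5, 4.4 and 5.9 CPM with DMSO and 6.8, 7.4 and 7.8 CPM with SCH772984. Its log2 fold change was 0.57 (SE 0.20, edgeR adjusted p = 0.00914). Without DMSO replicate 1 the adjusted p of FGFR2 was 0.0556, and without DMSO replicate 2 it was 0.0561. When each library was left out, the log2 fold change of FGFR2 lay between 0.47 and 0.69.

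MET, whose activation drives migration and invasion, had 23.5, 19.1 and 25.0 CPM with DMSO and 36.7, 40.6 and 39.1 CPM with SCH772984. The groups did not overlap, and the log2 fold change was 0.78 (SE 0.10, edgeR adjusted p = 5.58e-09). AXL, which is associated with a mesenchymal state and drug resistance in tumor cells, moved the other way. It had 268, 236 and 222 CPM with DMSO and 184, 180.1 and 193 CPM with SCH772984. All treated libraries lay below all DMSO libraries, and AXL fell by 0.39 on the log2 scale (SE 0.07, edgeR adjusted p = 1.46e-06), a 1.31-fold lower level. The median SE over all genes tested in this comparison was 0.115.

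INSR and IGF1R, the receptors of the insulin family, both rose. IGF1R had 82.3, 80.2 and 88.4 CPM with DMSO and 121, 132 and 122 CPM with SCH772984, a log2 fold change of 0.57 (SE 0.07, edgeR adjusted p = 1.11e-09). INSR had 41.2, 46.7 and 44.9 CPM with DMSO and 65.1, 64.8 and 62.5 CPM with SCH772984, a log2 fold change of 0.53 (SE 0.08, edgeR adjusted p = 1.61e-07). The 95% intervals were 0.43 to 0.71 and 0.37 to 0.69, which overlap. For both genes every SCH772984 library was above every DMSO library.

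Of the adaptors that dock on these receptors, IRS1 rose and IRS2 did not pass the test. IRS1 had 205, 199 and 197 CPM with DMSO and 262, 240.1 and 254 CPM with SCH772984, with a log2 fold change of 0.33 (SE 0.06, edgeR adjusted p = 9.05e-06). IRS2 had 18.1, 16.1 and 17.2 CPM with DMSO and 18.1, 14.9 and 17.9 CPM with SCH772984. The IRS2 libraries overlapped, and the log2 fold change was -0.02 with a 95% interval of -0.28 to 0.24 (edgeR adjusted p = 0.886). A difference as large as the rise of IRS1 lies outside that interval. With scaling by library size alone the value for IRS2 was 0.15 and still did not pass (adjusted p = 0.283). The log2 ratio of IRS2 to IRS1 was -3.25 ± 0.07 (SD, n = 3) with DMSO and -3.61 ± 0.10 with SCH772984, with no overlap between libraries (two-sided exact permutation test, p = 0.1, the smallest that 3 against 3 can give). With compound 1 it was -3.50 ± 0.14, also below DMSO without overlap (exact permutation p = 0.1), and it overlapped SCH772984 (p = 0.4). For SCH772984 against DMSO, adjusted over the 30 ratios and sums tested in this way it was 0.143, so none of these tests could pass 0.05.

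**Figure D2:**
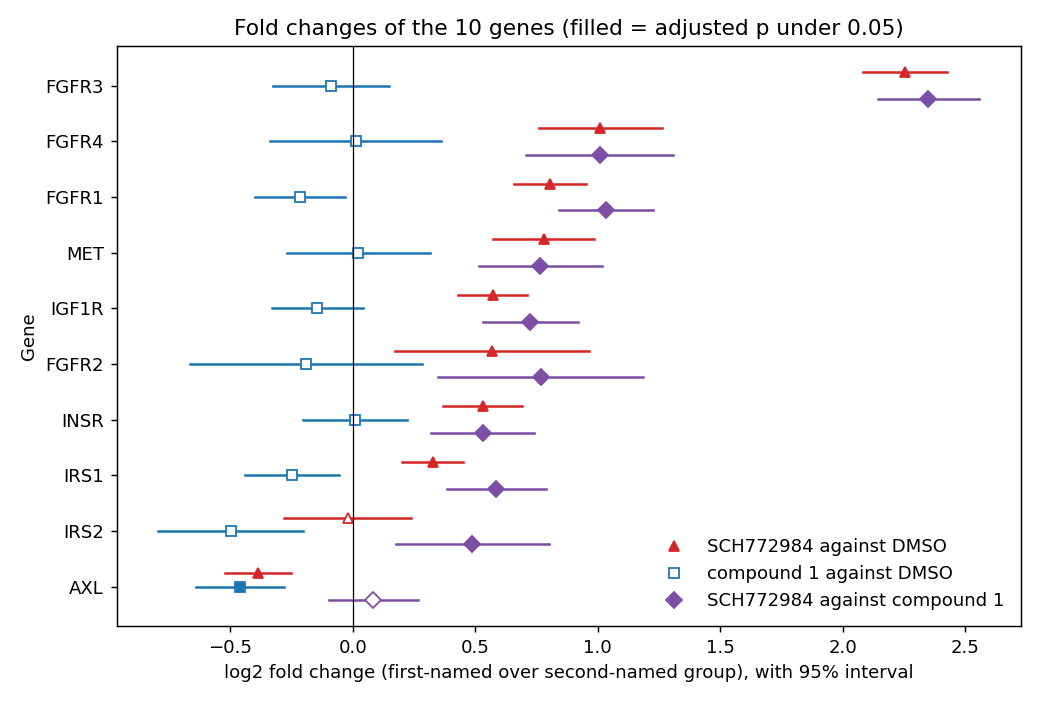
Log2 fold change of each gene with 95% intervals from edgeR, with 3 against 3 libraries in each comparison. The 3 comparisons are SCH772984 against DMSO, compound 1 against DMSO and SCH772984 against compound 1. Against DMSO, FGFR3 lies at 2.25 with SCH772984 and -0.09 with compound 1, whereas AXL lies below 0 with both, at -0.39 and -0.46.

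The makeup of the FGF receptors also shifted. The summed level of FGFR1 to FGFR4, in CPM per kilobase, was 14.1, 13.4 and 15.9 with DMSO, 13.6, 13.0 and 13.5 with compound 1, and 44.0, 44.5 and 50.1 with SCH772984. FGFR3 made up 44.1, 45.6 and 48.5% of that sum with DMSO and 69.1, 68.2 and 70.3% with SCH772984, so every treated library was higher. The share of FGFR1 was 31.1% ± 3.0 (SD, n = 3) with DMSO and 17.1% ± 0.86 with SCH772984, that of FGFR4 18.3% ± 0.40 and 11.6% ± 0.090, and that of FGFR2 4.49% ± 0.36 and 2.10% ± 0.090. The shares of FGFR1, FGFR2 and FGFR4 were thus lower in every SCH772984 library although each of these genes was higher in level. Each of these differences had an exact permutation p of 0.1 (two-sided), the smallest possible with 3 against 3. The order of the receptors rests on the division by gene length. In CPM without that division FGFR1 was the largest share with DMSO, 55.4% ± 3.5 (SD, n = 3), and FGFR3 had 28.8% ± 2.4, while with SCH772984 FGFR1 had 36.7% ± 1.4 and FGFR3 52.1% ± 1.4. The direction of each share was the same on both scales. With compound 1 the 4 shares overlapped those with DMSO, and FGFR3 stood at 46.9% ± 2.0. The share of FGFR4 was 23.8% in replicate 1 of compound 1 and 16.3 and 19.7% in the others, so that its difference from DMSO was 1.64 percentage points with that library and -0.29 without it. When each of the 6 libraries was left out, this difference ranged from -0.29 to 3.45, the latter without compound 1 replicate 2. That of FGFR3, 0.88 percentage points, ranged from -0.085 without DMSO replicate 1 to 2.09 without DMSO replicate 3, and was 2.02, 0.19 and 0.42 without compound 1 replicates 1, 2 and 3. For each of these genes the direction changed when 1 library was left out.

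**Figure D3:**
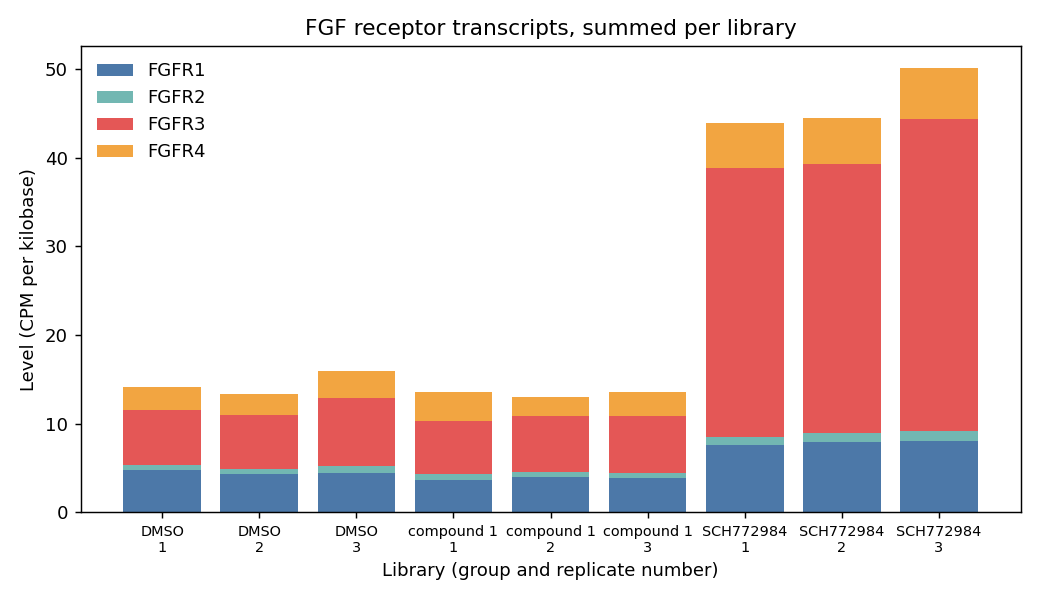
Level of FGFR1, FGFR2, FGFR3 and FGFR4 in each of the 9 libraries, stacked, in CPM per kilobase. The stacks reach 13.0 to 15.9 in the DMSO and compound 1 libraries and 44.0 to 50.1 in the SCH772984 libraries, where FGFR3 takes 68.2 to 70.3%.

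Sums and ratios over the receptors were also taken per library. The summed level of the 8 receptors was 103 ± 4.3 CPM per kilobase (SD, n = 3) with SCH772984, 74.8 ± 3.9 with DMSO and 60.3 ± 2.5 with compound 1, with no overlap between the 3 conditions. AXL was the most abundant of these receptors in every condition. The log2 ratio of AXL to MET was 3.88 ± 0.25 with DMSO, 3.40 ± 0.37 with compound 1 and 2.71 ± 0.094 with SCH772984, and the SCH772984 libraries were below those of both other conditions. For this ratio replicate 1 of compound 1 had 3.82, within the DMSO range of 3.60 to 4.07, while replicates 2 and 3 had 3.24 and 3.14, below all DMSO libraries. The difference between compound 1 and DMSO was -0.48, and -0.69 without replicate 1, and it lay between -0.69 and -0.35 when each of the 6 libraries was left out. The log2 ratio of INSR to IGF1R was -0.50 ± 0.12 with DMSO and -0.54 ± 0.07 with SCH772984, which overlapped. It was -0.35 ± 0.05 with compound 1, which overlapped DMSO and lay above SCH772984 without overlap. Of these differences, those without overlap had the smallest possible exact permutation p, 0.1 (two-sided, 0.143 when adjusted).

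The comparison of compound 1 with DMSO asked what inhibition of TBK1 and IKKε does to the same genes. AXL was the 1 gene of the 10 that passed edgeR's test after adjustment over 12849 genes, where 0.864% of all genes passed, 0.490% higher and 0.374% lower. It had 196, 166 and 163 CPM with compound 1, against 222 to 268 with DMSO, so that all 3 libraries lay below all 3 controls. AXL fell by 0.46 on the log2 scale (SE 0.08, edgeR adjusted p = 0.0247), 1.38-fold lower, and 97.8% of the genes tested had a higher log2 fold change. Without compound 1 replicate 1, AXL fell by 0.55 (edgeR adjusted p = 4.37e-08). The call did not hold when any of the other 5 libraries was left out: edgeR's adjusted p was 0.196 without DMSO replicate 1, 0.164 without DMSO replicate 2, 0.0699 without DMSO replicate 3, 0.0550 without compound 1 replicate 2 and 0.106 without compound 1 replicate 3. The log2 fold change of AXL lay between -0.55 and -0.38 when each library was left out. Both inhibitors were compared with the same 3 DMSO libraries, so the fall of AXL with each is not independent. Over all genes the calls with compound 1 numbered 63 higher and 48 lower, but 453 higher and 798 lower without compound 1 replicate 1, and 85 higher and 25 lower when scaled by library size alone.

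At an unadjusted p under 0.05, 4 of the 10 were lower (AXL, IRS1, IRS2 and FGFR1) and 0 higher, where 7.69% of all genes were lower and 7.35% higher. A change of at least 2-fold was found in 0 of the 10, against 0.0467% of all genes higher and 0% lower. IRS2 had 10.4, 13.7 and 12.2 CPM with compound 1, all below the 16.1 to 18.1 CPM with DMSO. Its log2 fold change was -0.50 with a 95% interval of -0.80 to -0.20 (edgeR adjusted p = 0.103), and without compound 1 replicate 1 it was -0.40 (adjusted p = 0.0709). Without the filter on low counts IRS2 passed (adjusted p = 0.0452), and it also passed when the replicate number was added to the fit, as given in the last section. IRS1 had 142, 173 and 188 CPM against 197 to 205 with DMSO, a log2 fold change of -0.25 (edgeR adjusted p = 0.2003), and it was the 142 CPM of replicate 1 that lay lowest. Without that library the log2 fold change of IRS1 was -0.14 (adjusted p = 0.118). FGFR1 had 50.4, 55.2 and 54.0 CPM against 59.3 to 65.4, a log2 fold change of -0.22 (edgeR adjusted p = 0.242), and -0.18 without replicate 1 (adjusted p = 0.171).

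IGF1R also had no overlap between groups, at 69.0, 80.1 and 77.3 CPM against 80.2 to 88.4, though the highest compound 1 library and the lowest DMSO library all but met. Its log2 fold change was -0.14 (edgeR adjusted p = 0.474), and -0.08 without compound 1 replicate 1. Of the 9 genes other than AXL, 0 passed without that library. In all, 5 of the 10 genes lay below DMSO in every compound 1 library, where 10.6% of all genes did, and 0 lay above, where 10.3% did. MET, INSR, FGFR2, FGFR3 and FGFR4 overlapped, with 19.1 to 25.4, 39.6 to 47.1, 3.6 to 4.8, 29.4 to 31.4 and 10.2 to 15.6 CPM with compound 1. For these the 95% intervals of the log2 fold change were -0.27 to 0.31 for MET, -0.20 to 0.22 for INSR, -0.66 to 0.28 for FGFR2, -0.33 to 0.15 for FGFR3 and -0.34 to 0.36 for FGFR4. These intervals are wide for the less abundant genes, but a rise of FGFR3 of the size found with SCH772984 lies outside its interval. The median log2 fold change of the 10 genes was -0.17, against 0.00 for all genes tested.

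SCH772984 was then compared directly with compound 1, which does not use the DMSO libraries. Of the 10 genes, 9 were higher with SCH772984 and 0 lower by edgeR's test, where 66.3% of 13863 genes passed, 33.7% higher and 32.6% lower. At least 2-fold higher were 3 of the 10 (FGFR1, FGFR3 and FGFR4), where 16.5% of all genes were, and 0 were 2-fold lower, where 10.1% were. With library size alone the split over all genes was 5526 higher and 3736 lower, and AXL joined the 9 genes that were higher. FGFR3 was 5.10-fold higher, with a log2 fold change of 2.35 (SE 0.10, edgeR adjusted p = 6.38e-14). FGFR1 differed by 1.03 (edgeR adjusted p = 4.16e-09), FGFR4 by 1.01 (3.41e-06), MET and FGFR2 by 0.77 each (1.16e-05 and 0.00222), IGF1R by 0.72 (8.27e-07) and INSR by 0.53 (0.000101), all on the log2 scale. IRS1 was 1.501-fold higher (log2 fold change 0.59, edgeR adjusted p = 2.06e-05). IRS2, which did not pass in either comparison with DMSO, was 1.402-fold higher than with compound 1 (log2 fold change 0.49, SE 0.15, edgeR adjusted p = 0.00723). Without compound 1 replicate 1 the log2 fold change of IRS2 was 0.39 (adjusted p = 0.0270), and all 9 calls held without that library. Once trends of each library with length and GC content were taken out, the difference of IRS2 was 0.23 (adjusted p = 0.143). AXL did not differ between the inhibitors beyond its spread, with a log2 fold change of 0.08, a 95% interval of -0.10 to 0.26 and an edgeR adjusted p of 0.413. Without compound 1 replicate 1 it was 0.17 (adjusted p = 0.0536), and with scaling by library size alone it was 0.22 (adjusted p = 0.0267), so the call for AXL depends on the scaling.

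As a check of ERK inhibition, 10 of 11 ERK output genes were tested. The list was written with earlier results of these data known, so the check is not independent of them. DUSP6, which passed the filter through the DMSO libraries alone (25 to 51 counts, against 0 to 1 with SCH772984), was named for that after its values were seen. The other 9 were all lower with SCH772984 than with DMSO, with a median log2 fold change of -3.45, where 37.3% of the genes that reached 10 counts in both groups were lower. SPRY4, a feedback inhibitor of receptor tyrosine kinase signaling, fell by 6.81 and ETV5, an ETS factor induced by ERK, by 6.54 on the log2 scale (edgeR adjusted p = 6.44e-40 and 1.55e-34). With compound 1, 0 of the 10 passed edgeR's or DESeq2's test, where by edgeR 0.490% of all genes were higher and 0.374% lower. At an unadjusted p under 0.05, 2 were higher and 2 lower, where 7.35% of all genes were higher and 7.69% lower. Without compound 1 replicate 1, 2 of them were called lower by edgeR and 0 higher, where 798 of 13084 genes were lower and 453 higher.

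Few ligand genes of the receptors were measurable in these cells. Of 28 ligand genes, 6 were expressed enough to be tested, and HGF, IGF1, IGF2 and INS had between 0 and 3 counts in every library, at or under the level that a count of 0 allows. With SCH772984, 3 of the 6 were higher than with DMSO and 1 lower (50.0% and 16.7%). In 809 of the 13834 genes tested, 1 group had under 10 counts in every library, so that they passed the filter through the other group. Over the remaining 13025 genes, 34.1% were higher and 37.3% lower, and the lists are set against these shares. FGF2, a ligand of several FGFRs, had 28.6, 29.4 and 29.2 CPM with DMSO, 15.6, 23.0 and 21.4 CPM with compound 1 and 159, 154 and 128 CPM with SCH772984. The SCH772984 libraries were far above both other groups, and the log2 fold change against DMSO was 2.33 (SE 0.08, edgeR adjusted p = 2.37e-27). With compound 1 all 3 FGF2 values were below those with DMSO, at a log2 fold change of -0.53 (edgeR adjusted p = 0.0722), and DESeq2 called 1 of the 6 ligands lower. GAS6, the ligand of AXL, had 16.5, 11.7 and 16.6 CPM with DMSO, 19.8, 16.3 and 14.6 with compound 1 and 72.8, 71.5 and 81.9 with SCH772984. It rose with a log2 fold change of 2.33 (SE 0.10, edgeR adjusted p = 2.11e-23), whereas AXL itself was lower in the same libraries.

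Of 32 other receptor tyrosine kinases listed, 13 were tested with SCH772984. PDGFRB (0 to 2 counts per library with DMSO, 64 to 99 with SCH772984), LMTK3 (0 to 5 and 23 to 42) and MST1R (13 to 16 and 2 to 8) passed the filter through 1 group, and are given by their counts alone. Of the other 10, 6 were higher and 4 lower (against 34.1% and 37.3% of all such genes), with a median log2 fold change of 0.40 against -0.02 for all such genes. DDR1, a collagen receptor, had 76.0 CPM ± 2.5 (SD, n = 3) with DMSO and 308 CPM ± 15 with SCH772984, a log2 fold change of 2.01 (edgeR adjusted p = 1.18e-28). AATK, a kinase of the LMTK family, rose by a log2 fold change of 2.03 (edgeR adjusted p = 3.74e-14). TYRO3, a relative of AXL, fell by 0.44, and ROR1, a WNT5A receptor, fell by 0.59 on the log2 scale. PDGFRB, LMTK3, MST1R and MERTK were named after their values were seen. MERTK, the other relative of AXL, with 2.76 CPM ± 0.30 (SD, n = 3) with DMSO, rose by a log2 fold change of 1.20 (edgeR adjusted p = 1.44e-05). With compound 1, 0 of 11 passed edgeR's or DESeq2's test, where by edgeR 0.864% of all genes passed. At an unadjusted p under 0.05, 2 were lower and 0 higher, where 7.69% of all genes were lower and 7.35% higher. In the comparison of SCH772984 with compound 1, the same 3 genes passed through 1 group. Of the other 10, 6 were higher and 3 lower (against 31.2% and 33.8% of all such genes).

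Of 9 genes tested that bind the ligands or help to activate them, 3 were higher and 5 lower (33.3% and 55.6%), with a median log2 fold change of -0.21, against 34.1% and 37.3% of all such genes. With scaling by library size alone 4 were higher and 2 lower, where 6242 of all 13834 genes were higher and 3911 lower. IGF2R, which clears IGF2, rose by 0.78 (edgeR adjusted p = 1.04e-15), while IGFBP4, which sequesters insulin-like growth factors, fell by 2.17 (edgeR adjusted p = 6.17e-28) and IGFBP6 fell by 0.40 on the log2 scale. Of the adaptors and PI3K subunits, 11 of 24 were higher and 9 lower (45.8% and 37.5%, median 0.29), against the same 34.1% and 37.3%. PIK3R3, a regulatory subunit of PI3K, rose from 32.2 CPM ± 3.0 to 140 CPM ± 6.4 (SD, n = 3), a log2 fold change of 2.11 (edgeR adjusted p = 1.14e-26), and PIK3CD, a catalytic subunit, by 1.07. SHC1 and SHC3, adaptors that link receptors to GRB2, fell by 2.05 and 1.89 on the log2 scale (edgeR adjusted p = 3.91e-30 and 1.40e-19).

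Of 18 genes for receptor down-regulation and shedding, SOCS2 passed the filter through 1 group (11 to 15 counts with DMSO and 4 to 6 with SCH772984) and is named for that after its values were seen. Of the other 17, 6 were higher and 8 lower with SCH772984 (35.3% and 47.1%, median -0.37), against 34.1% and 37.3% of all such genes. PTPRJ, a receptor phosphatase, rose by a log2 fold change of 1.52 and ADAM17, a sheddase, by 0.69. ERRFI1, an inhibitor of EGFR, fell by 1.63 and TIMP1, an inhibitor of metalloproteases, by 1.91 on the log2 scale (edgeR adjusted p = 4.30e-27 and 2.98e-23). With compound 1, 0 genes of these lists passed edgeR's test. Without compound 1 replicate 1, chosen as an alternative after the data were seen, 1 receptor tyrosine kinase, 1 ligand, 1 binding protein and 1 down-regulation gene were lower, where 453 of 13084 genes were higher and 798 lower. At an unadjusted p under 0.05, where 7.35% of all genes were higher and 7.69% lower, the counts were 1 lower of 6 ligands, 1 higher and 1 lower of 8 binding proteins, 1 higher and 1 lower of 24 adaptors and 2 lower of 18 down-regulation genes.

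In the direct comparison of the inhibitors, 2 of 6 ligands were higher with SCH772984 and 1 lower, 3 of 9 binding proteins higher and 4 lower, 9 of 24 adaptors higher and 10 lower, and 6 of 17 down-regulation genes higher and 8 lower. These are 33.3% higher and 16.7% lower for the ligands, 33.3% and 44.4% for the binding proteins, 37.5% and 41.7% for the adaptors and 35.3% and 47.1% for the down-regulation genes, against 31.2% and 33.8% of the 13213 genes that reached 10 counts in both groups. With scaling by library size alone, 0 ligands, 2 binding proteins, 10 adaptors and 5 down-regulation genes were lower, where 3736 of all 13863 genes were. LRIG1, a negative regulator of receptor tyrosine kinases, was higher by 0.83 and IGFBP2 lower by a log2 fold change of -0.63 (edgeR adjusted p = 0.000696 and 0.00715).

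**Figure D4:**
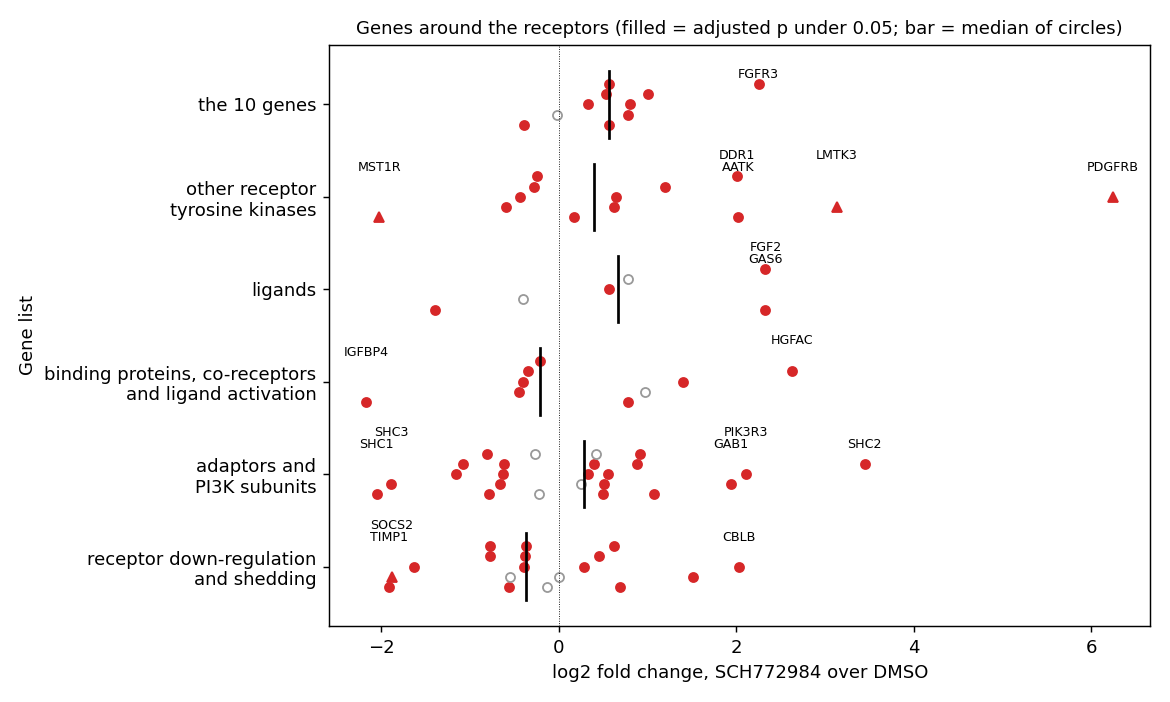
Log2 fold change with SCH772984 against DMSO for the 10 genes and for 5 lists of related genes (rows), with filled points for an edgeR adjusted p under 0.05, open points for the rest, triangles for genes that passed the filter through 1 group and a bar for the median of the others. Medians lie at 0.57 for the 10 genes and 0.40 for the other receptor tyrosine kinases, and at -0.37 for the genes of receptor down-regulation and shedding.

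Among 10476 genes with an average of at least 5 CPM, the genes whose log2 CPM followed each of the 10 most closely over the 9 libraries were named as a description. The SCH772984 libraries stand apart from the other 6 on the first principal component (79.9% of the variance), and all points share 1 scaling, so the r values carry no p. Among the closest were CDS2 for FGFR3 (Pearson r of 0.997), ATP8B2 and NR2F2 for FGFR1 (0.997 each), RAP1GAP and SLC38A10 for FGFR4 (0.992 and 0.991), and RALGAPA2 and AC091729.3 for FGFR2 (0.969 each). For MET they were AGO4 and BTN3A3 (0.990 and 0.987), for IGF1R PKD2 and UTRN (0.994 and 0.992), for INSR AKAP5 and PFKFB2 (0.998 and 0.990), and for IRS1 PTPN14 and ZZEF1 (0.993 and 0.985). For AXL they were FOXRED2 and CLPTM1 (0.955 and 0.954), and for IRS2 it was MICAL2 (0.974). Among the 10 themselves, IGF1R and FGFR1 had the highest r, 0.983 over the 9 libraries, and AXL and INSR the lowest, -0.41.

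In the genome (GRCh38, GENCODE 29), FGFR3 spans chr4:1793293-1808872 and FGFR4 chr5:177086886-177098144, both on the plus strand, and FGFR2 spans chr10:121478334-121598458 on the minus strand. AXL spans chr19:41219203-41261766 and MET chr7:116672390-116798386, both on the plus strand. IGF1R spans chr15:98648539-98964530 on the plus strand and INSR chr19:7112255-7294034 on the minus strand. The adaptors IRS1 and IRS2 span chr2:226731317-226799759 and chr13:109752698-109786568, both on the minus strand. AXL overlaps the antisense gene AC011510.1, which had 0 to 8 counts per library.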

How the data were processed

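RNA was sequenced from 9 libraries of MIA PaCa-2 cells, 3 per condition, grouped by their deposited labels. The authors deposited raw counts per gene, whole numbers without normalization or a filter, for 58735 genes. Per the labels, reads were aligned with HISAT2 2.0.5 to hg38 and counted with featureCounts 1.5.0-p3, and the strand setting is not given in the sources used here, so genes that overlap on opposite strands are uncertain. All 58735 identifiers and coordinates matched GENCODE 29.

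Each inhibitor was compared with DMSO, and the inhibitors with each other, in separate fits over all genes with edgeR 4.0.16 in R 4.3.3 (TMM, filterByExpr with a minimum count of 10 and a minimum total of 15, robust quasi-likelihood test). A gene was called at a Benjamini-Hochberg adjusted p under 0.05. Intervals are 95% intervals from edgeR's SE, which covers counting error and the spread among libraries. Levels are TMM-normalized CPM, divided by the gene length in kilobases where genes are compared. Ratios and shares were set against each other with exact permutation tests (two-sided). Named were all 10 genes and, from each list and comparison, up to 2 genes with the largest rise and 2 with the largest fall among called genes with an average of at least 5 CPM and libraries that did not overlap. HGF, IGF1, IGF2, INS, MERTK, PDGFRB, LMTK3, MST1R, SOCS2, DUSP6 and the cell type markers were named outside that rule, after their values were seen. For each of the 10, the 2 genes with the highest Pearson r over the 9 libraries were also named, except a few that are left out here. The genes and lists were chosen with earlier results of these data known.

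Alternatives were RLE factors, library size alone, no filter, a minimum of 10 counts in each library, a joint fit of all 9 libraries, a replicate block, the protein-coding subset, DESeq2 1.42.0, an unadjusted p, a 2-fold minimum, leaving out each library, 0.5 added to the counts for ratios and levels without division by length. Removal of trends with gene length and GC content (spline with 5 degrees of freedom), the lists with DESeq2 and without compound 1 replicate 1, the lists over genes with at least 10 counts in a library of each group, and FGFR shares without division by length, were chosen after seeing the data. Steps were tested on simulated data. The depth was 9464432 to 13887859 counts per library.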

Additional observations from a re-analysis of the deposited data

How the results depend on the processing

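Under the alternatives, 0 results changed to a called value of the opposite sign. For SCH772984 against DMSO, a 2-fold minimum left 2 genes higher and 0 lower, leaving out each library gave 7 to 8 higher and 1 lower, and scaling by library size alone left 3 other receptor tyrosine kinases and 2 binding proteins lower, in place of 5 and 5 (the 5 kinases include MST1R, which passed the filter through the DMSO libraries alone). For compound 1 the number of the 10 genes lower was 1, but 2 without the filter on low counts (IRS2 joined, edgeR adjusted p = 0.0452), 4 at an unadjusted p, 0 with a 2-fold minimum and 0 to 1 when each library was left out. At an unadjusted p the lists gave 2 receptor tyrosine kinases lower, 1 ligand lower, 1 binding protein higher and 1 lower, 1 adaptor higher and 1 lower, 2 down-regulation genes lower and 2 ERK output genes higher and 2 lower. DESeq2 gave 1 ligand lower. Without compound 1 replicate 1, 1 receptor tyrosine kinase, 1 ligand, 1 binding protein, 1 down-regulation gene and 2 ERK output genes were lower. Over all genes, calls with compound 1 were 63 higher and 48 lower in the reported fit, 189 and 228 without the filter, 91 and 97 with all 9 libraries in one fit, 117 and 119 with DESeq2, 267 and 279 with the length and GC trend removed, 38 and 32 among protein-coding genes, and 5 to 453 higher and 3 to 798 lower when each library was left out. For SCH772984 against compound 1, a 2-fold minimum left 3 genes higher. Scaling by library size alone then left 2 receptor tyrosine kinases, 0 ligands, 2 binding proteins and 5 down-regulation genes lower, in place of 4 (MST1R included), 1, 4 and 8, and DESeq2 left 0 ligands lower. Without division by length, 4 of the 10 genes kept their rank of level with DMSO, 7 with compound 1 and 7 with SCH772984. In CPM without that division, the change of share with SCH772984 against DMSO was -18.7 percentage points for FGFR1, -1.92 for FGFR2 and -2.69 for FGFR4, and against compound 1 -16.1 for FGFR1 and -4.09 for FGFR4. The cause of these changes was not tested, except that fewer libraries or a stricter rule act by construction.

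Replicate numbers are shared by the 3 groups, and the reported fits do not pair libraries by number. Deviations of same-numbered libraries correlated at -0.0787 to 0.107, and those of other pairs at -0.101 to 0.149. With 3 libraries per group, such correlations cannot show whether the libraries were paired. With the replicate block, 2 genes were lower with compound 1, since IRS2 passed (log2 fold change -0.50, edgeR adjusted p = 0.0486), and 193 genes were higher and 219 lower over the table. It changed no other call among the 10 genes. Among the 10 genes, FGFR2 has the fewest reads and the widest interval with SCH772984.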
